A study of Homo sapiens with 6 samples.

Results

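Oxidative stress and glutathione genes were followed here in HepG2 cells, a human liver cancer line, with and without fructosamine-3-kinase (FN3K). The group is 10 genes chosen by name, with earlier results of these data known. They are NQO1, HMOX1, SLC7A11, GCLC, GCLM, GPX3, MGST1, AKR1C1, SOD2 and FTH1. All 10 of 10 were found among the 4926 loci with a gene name, of 6357 loci in the table. WT cells and FN3K KO cells were each grown in 3 plates in EMEM with fetal bovine serum, with no treatment named in the labels. RNA of each plate was sequenced as 1 library. How many KO clones lie behind the 3 plates is not given in the sources used here, so a property of a clone and the loss of FN3K cannot be told apart, and p-values measure only the spread between these plates. The question is how the genes that make, use and regenerate glutathione and that detoxify oxidants differed between the genotypes. Levels are FPKM, fragments scaled to transcript length and to the mapped total of the library, and depth is unknown because no read counts were used. Differences are FN3K KO minus WT on the scale of log2(FPKM + 1), which understates changes of low genes, and a gene is said to have risen or fallen where its Benjamini-Hochberg adjusted p in limma over all 6357 loci was under 0.05.

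Most of these genes are textbook targets of NRF2, a transcription factor that KEAP1 holds for degradation in the cytoplasm. When oxidants or electrophiles modify cysteines of KEAP1, NRF2 enters the nucleus and binds antioxidant response elements together with small MAF proteins. Its targets import cystine, join cysteine to glutamate as the first step of glutathione synthesis, conjugate electrophiles, reduce quinones and carbonyls, break down haem and store iron. Liver cells depend on glutathione both for peroxide removal and for the conjugation of xenobiotics. FN3K phosphorylates sugars bound to lysines of glycated proteins, which leads to their release. GPX3, MGST1 and SOD2 are not in the list of NRF2 targets used below. SOD2, the mitochondrial superoxide dismutase, is best known as a target of NF-kappaB signalling.

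FN3K itself was at 24.3 ± 3.05 FPKM in WT and at 0.837 ± 0.168 FPKM in FN3K KO (SD, n = 3). Its difference of -3.78 on the log2 scale (SE 0.13, adjusted p = 1.1e-07) went with the labels of the libraries. The genotypes differed widely, and more loci fell than rose: over all loci the log2 fold change had a median of -0.14, and over the 10 genes one of 0.71. Of the fixed hepatocyte markers 7 of 10 were listed, with a summed level of 8887 to 9035 FPKM in WT and 14751 to 15829 FPKM in FN3K KO. AFP, the fetal counterpart of albumin, went from 1537 to 6206 FPKM and APOA1, the main protein of HDL, from 1516 to 3339 FPKM. AHSG (2952 and 2670 FPKM, adjusted p = 0.24) and TF (1990 and 1951 FPKM, 0.81) were not called, and HNF4A, a hepatocyte transcription factor, fell (-0.35). Fibroblast markers (0 of 6) and endothelial markers (0 of 5) were not listed by name, and of 6 leukocyte markers 1, CD14, was listed, at 0.446 to 2.62 FPKM in WT and 13.1 to 16.1 FPKM in FN3K KO. The part of these marker shifts in the results below was not tested. In bulk RNA fewer cells of a kind and less RNA per cell cannot be told apart.

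Of the 10 genes, 7 rose in FN3K KO (NQO1, HMOX1, GCLM, GPX3, MGST1, AKR1C1 and SOD2), where 21.2% of all loci rose. The 2 that fell, SLC7A11 and GCLC, both serve glutathione synthesis, and 36.5% of all loci fell. FTH1 was not called. Only GPX3 of the 10 rose by over 1 on the log2 scale, as did 4.25% of all loci. All 3 FN3K KO libraries lay above all 3 WT libraries for the same 7 genes, against 23.6% of loci, and below them for the 2 that fell, against 39.8% of loci. For these 9 genes the exact two-sided permutation test gave p = 0.1, the smallest that 3 against 3 libraries allow. Because the genes were chosen with earlier results known, the shares of all loci are no test of the group.

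**Figure D1:**
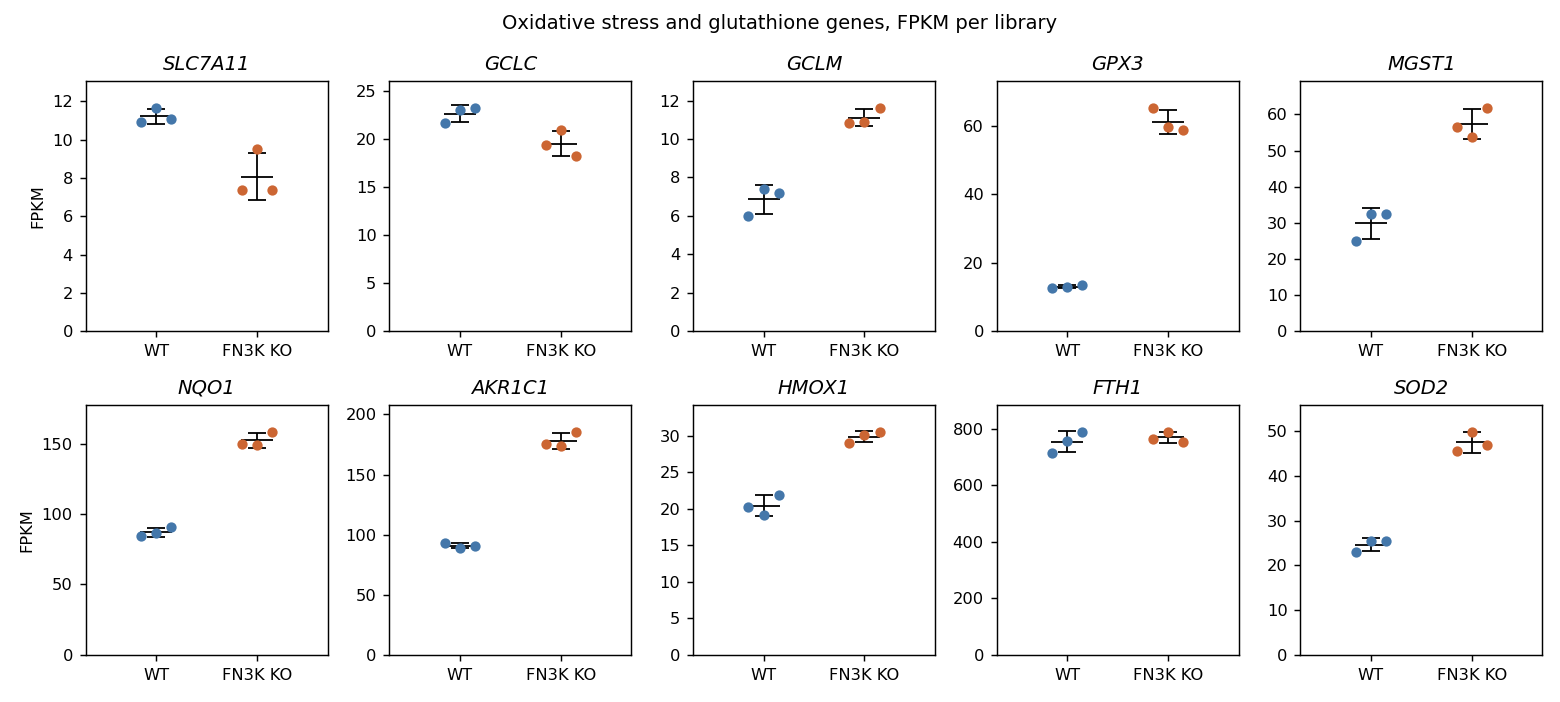
FPKM (y axis, linear, from 0) of each of the 10 genes in the 3 WT (blue) and 3 FN3K KO (orange) libraries, with 1 dot per library and black bars for the mean ± SD. The KO dots lie above the WT dots in 7 panels and below them for SLC7A11 and GCLC, and the groups overlap for FTH1.

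Promoter sequence is shown first for the pair of glutamate-cysteine ligase subunits and for the glutathione peroxidases GPX3 and GPX2, both of which rose. Of the ligase subunits GCLM rose. The fall of GCLC was slight, near the median of all loci, and not called in every setting. Each window is from RefSeq (GRCh38.p14), runs 5′ to 3′ on the strand of its gene from 250 bases before to 50 bases after the start, and has in capitals the antioxidant response element core, TGACNNNGC, where that string is found on either strand. The windows are chr1:93909381-93909680 (minus strand) for GCLM, chr6:53545052-53545351 (minus strand) for GCLC, chr14:64942696-64942995 (minus strand) for GPX2 and chr5:151020341-151020640 (plus strand) for GPX3.
GCLM: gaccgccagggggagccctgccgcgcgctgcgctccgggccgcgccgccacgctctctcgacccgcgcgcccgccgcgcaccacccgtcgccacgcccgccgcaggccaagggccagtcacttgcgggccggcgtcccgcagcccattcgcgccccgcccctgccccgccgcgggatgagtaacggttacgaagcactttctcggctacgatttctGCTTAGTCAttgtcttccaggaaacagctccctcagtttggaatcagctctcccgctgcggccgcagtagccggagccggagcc
GCLC: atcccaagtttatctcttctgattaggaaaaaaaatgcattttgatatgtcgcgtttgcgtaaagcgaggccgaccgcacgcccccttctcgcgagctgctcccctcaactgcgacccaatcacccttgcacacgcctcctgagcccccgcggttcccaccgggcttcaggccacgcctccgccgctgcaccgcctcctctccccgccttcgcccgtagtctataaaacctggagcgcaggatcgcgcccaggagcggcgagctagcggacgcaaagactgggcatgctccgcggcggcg
GPX2: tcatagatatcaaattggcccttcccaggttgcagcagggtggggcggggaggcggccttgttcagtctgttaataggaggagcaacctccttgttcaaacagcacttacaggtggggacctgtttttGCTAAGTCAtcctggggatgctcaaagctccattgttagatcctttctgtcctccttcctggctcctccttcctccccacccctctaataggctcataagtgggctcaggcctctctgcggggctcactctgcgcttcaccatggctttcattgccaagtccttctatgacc
GPX3: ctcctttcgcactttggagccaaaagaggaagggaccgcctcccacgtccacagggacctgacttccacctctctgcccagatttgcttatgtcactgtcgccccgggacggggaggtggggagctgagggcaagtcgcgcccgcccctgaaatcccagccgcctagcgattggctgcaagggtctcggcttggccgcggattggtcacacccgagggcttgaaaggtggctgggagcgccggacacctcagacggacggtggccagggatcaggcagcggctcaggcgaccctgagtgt
The core appeared in reverse orientation at positions 217 to 225 of the GCLM window and at positions 129 to 137 of the GPX2 window, counted from 1 at the 5′ end. The GCLC and GPX3 windows held none, which says only that these letters are not in these 300 bases.

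Of the 10 genes 7 had windows in the RefSeq table (HMOX1, SLC7A11 and FTH1 had none), and 2 of these 7, GCLM and MGST1, held a match. MGST1 held it in 1 of its 3 windows, at positions 281 to 289 of chr12:16346865-16347164. For comparison, 13.3% of all 35116 windows, 16.1% of the 27305 genes with a window and 21.1% of the named loci with a window held the core. Among the listed NRF2 targets 7 of 19 with a window did (36.8%). Of these 19 targets 17 rose, and all 7 with a match were among them. Only 2 targets with a window did not rise, too few to set the match against the rise. A match is a string of letters and not a bound site.

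The transcript for cystine import fell. SLC7A11, at chr4:138164097-138242349 on the minus strand (GRCh38, GENCODE 29), encodes the transporter subunit that exchanges glutamate for cystine, the source of cysteine for glutathione. Its levels were 10.9, 11.7 and 11.1 FPKM in WT and 7.35, 9.51 and 7.37 FPKM in FN3K KO. All KO libraries were below all WT libraries, and KO replicate 2 was nearest to WT. The log2 fold change was -0.44 (SE 0.11, 95% interval -0.68 to -0.20, adjusted p = 0.0072), and -0.30 relative to the median of all loci. The call was lost in the model with Ballgown's library adjustment (-0.27, adjusted p = 0.34). The listed transcript shares 865 exonic bases with the antisense gene SLC7A11-AS1, and the strand of the libraries is not given in the sources used here, so reads of the pair cannot be told apart. SLC3A2, which encodes the partner chain of the transporter, was not listed by name and is not analysed here.

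The ligase subunits diverged. Glutamate-cysteine ligase, the rate-limiting enzyme of glutathione synthesis, has a catalytic subunit, GCLC (chr6:53497341-53616970, minus strand), and a modifier subunit, GCLM (chr1:93885205-93909456, minus strand), which lowers the need for glutamate and relieves feedback inhibition by glutathione. GCLM had 6.01, 7.41 and 7.19 FPKM in WT and 10.8, 10.9 and 11.6 FPKM in FN3K KO. The lowest KO library was thus well above the highest WT library, and GCLM rose by 0.63 on the log2 scale (SE 0.10, 95% interval 0.41 to 0.85, adjusted p = 6.8e-04). GCLC had 21.7, 23.1 and 23.3 FPKM in WT and 19.4, 20.9 and 18.3 FPKM in FN3K KO. These groups came close to each other without overlap. The log2 fold change of GCLC was -0.20 (SE 0.07, 95% interval -0.36 to -0.05, adjusted p = 0.031), and it lay 0.07 below the median of all loci. Its call was lost without WT replicate 2 (-0.19, adjusted p = 0.094), WT replicate 3 (-0.19, 0.095), KO replicate 1 (-0.20, 0.081) or KO replicate 3 (-0.16, 0.10). As a result, the ratio of GCLM to GCLC, both per kilobase, went from 0.277, 0.321 and 0.309 in WT to 0.557, 0.520 and 0.635 in FN3K KO. That is 0.303 ± 0.0227 against 0.571 ± 0.0590 (SD, n = 3), with no overlap (exact permutation p = 0.1, the smallest possible). GSS, the synthetase that adds glycine as the second step, rose by 0.31 (SE 0.07, adjusted p = 0.0039), from 21.3 to 26.6 FPKM.

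Of the 10 genes GPX3 moved most. It encodes an extracellular glutathione peroxidase, a selenoprotein that cells secrete, at chr5:151020438-151028993 on the plus strand. WT libraries held 12.6, 13.0 and 13.5 FPKM and FN3K KO libraries 65.3, 59.6 and 58.7 FPKM. Within each genotype the libraries were close, and the lowest KO value was several times the highest WT value. GPX3 rose by 2.15 on the log2 scale (SE 0.06, 95% interval 2.00 to 2.29, adjusted p = 5.0e-08), and by 2.28 relative to the median of all loci. Its rank by mean level among the 10 genes went from 8 in WT to 4 in FN3K KO. GPX2, the gastrointestinal form and the most abundant glutathione peroxidase transcript listed, rose from 221 ± 16.8 to 346 ± 21.5 FPKM (log2 fold change 0.65, SE 0.07, adjusted p = 1.3e-04). GPX4, which reduces lipid hydroperoxides in membranes, had 178 ± 7.74 FPKM in WT and 176 ± 14.3 FPKM in FN3K KO (log2 fold change -0.02, SE 0.07, adjusted p = 0.81), with a sign that turned positive under scaling to a common 75th percentile (0.03). GPX7, a peroxidase of the endoplasmic reticulum, fell from 9.86 to 6.87 FPKM (-0.46, adjusted p = 0.0032). GPX3 made up 2.92%, 3.26% and 3.11% of the summed FPKM of these 4 genes in WT and 11.4%, 10.4% and 9.35% in FN3K KO (exact permutation p = 0.1). GPX1 and GPX8 were not listed by name and are not analysed here.

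MGST1 encodes a membrane-bound glutathione transferase of the endoplasmic reticulum and outer mitochondrial membrane, which also has peroxidase activity, at chr12:16347142-16609259 on the plus strand. It had 24.97, 32.4 and 32.3 FPKM in WT and 56.6, 53.8 and 61.8 FPKM in FN3K KO. WT replicate 1 was below the other WT libraries, and all WT libraries were below all KO libraries. MGST1 rose by 0.93 on the log2 scale (SE 0.10, 95% interval 0.69 to 1.16, adjusted p = 9.5e-05), and by 0.81 to 0.99 with each library left out in turn. Of its relatives, MGST3 rose from 6.77 ± 0.530 to 12.1 ± 1.23 FPKM (0.76, SE 0.10, adjusted p = 2.7e-04). MGST2 was at 16.1 FPKM in WT and 16.6 FPKM in FN3K KO (0.05, SE 0.06, adjusted p = 0.54). The ratio of MGST1 to MGST2 was 1.55, 2.02 and 2.02 in WT and 3.45, 3.30 and 3.62 in FN3K KO, without overlap (exact permutation p = 0.1).

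The reductases NQO1 and AKR1C1 were the most abundant of the 7 members of the group that rose. NQO1, at chr16:69706996-69726951 on the minus strand, reduces quinones to hydroquinones by transfer of an electron pair and is the standard reporter of NRF2 activity. Its levels were 84.1, 86.5 and 90.6 FPKM in WT and 149.7, 149.1 and 158.5 FPKM in FN3K KO. The groups were far apart relative to their spread, with a log2 fold change of 0.80 (SE 0.05, 95% interval 0.68 to 0.92, adjusted p = 5.7e-06). NQO2, a related reductase with another cosubstrate, rose from 9.13 to 14.0 FPKM (0.57, SE 0.09, adjusted p = 6.6e-04).

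AKR1C1, at chr10:4963253-4983283 on the plus strand, is an aldo-keto reductase that reduces progesterone at its C20 carbonyl and reduces reactive aldehydes. WT libraries held 93.0, 89.0 and 90.7 FPKM and FN3K KO libraries 175.2, 173.4 and 185.8 FPKM. AKR1C1 rose by 0.96 on the log2 scale (SE 0.05, 95% interval 0.84 to 1.08, adjusted p = 1.7e-06), close to a doubling. Of the distinct stretches of 50 bases in its listed transcript, 28.3% also occur in AKR1C2, so reads may have been split between this pair. AKR1C2, a bile acid-binding relative, rose from 26.8 ± 0.928 to 43.3 ± 0.914 FPKM (0.67, SE 0.05, adjusted p = 1.5e-05). The ratio of AKR1C1 to AKR1C2 was 3.34, 3.41 and 3.44 in WT and 4.06, 4.09 and 4.20 in FN3K KO, a small shift without overlap (exact permutation p = 0.1). AKR1C3, AKR1C4 and AKR1B10 were not listed by name and are not analysed here.

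HMOX1, at chr22:35380361-35394214 on the plus strand, encodes the inducible haem oxygenase, which opens the haem ring and frees its iron. It had 20.2, 19.1 and 21.9 FPKM in WT and 29.03, 30.02 and 30.54 FPKM in FN3K KO. No KO library reached down to the WT range, and HMOX1 rose by 0.53 on the log2 scale (SE 0.07, 95% interval 0.38 to 0.68, adjusted p = 2.0e-04). HMOX2, the constitutive form, had 13.9 FPKM in WT and 15.3 FPKM in FN3K KO (0.13, SE 0.09, adjusted p = 0.23). The ratio of HMOX1 to HMOX2 was 1.64, 1.37 and 1.41 in WT and 1.83, 1.93 and 2.10 in FN3K KO (exact permutation p = 0.1).

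FTH1, at chr11:61959718-61967660 on the minus strand, encodes the ferritin heavy chain, whose ferroxidase site oxidises iron for storage, and was the most abundant of the 10 genes. Its levels were 715, 756 and 790 FPKM in WT and 764, 790 and 754 FPKM in FN3K KO. The ranges overlapped, and the log2 fold change was 0.03 (SE 0.07, 95% interval -0.13 to 0.19, adjusted p = 0.73, exact permutation p = 0.6), which turned to -0.01 without WT replicate 1. The interval leaves room for a small change either way. Of the stretches of 50 bases in the listed FTH1 transcript, 40.9% also occur in 13 other genes, with the highest share in the pseudogene FTH1P7 (20.2%), so the level is uncertain. FTH1 also shares exonic bases with BEST1, a chloride channel gene on the opposite strand. BEST1, looked at because of that overlap, was at 9.14 FPKM in WT and 0.112 FPKM in FN3K KO (log2 fold change -3.19, adjusted p = 4.3e-06), and the part of the shared bases in this was not tested. FTL, the ferritin light chain, was not listed by name and is not analysed here.

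SOD2, at chr6:159669057-159745186 on the minus strand, encodes the manganese superoxide dismutase of the mitochondrial matrix, which turns superoxide into hydrogen peroxide. It had 23.1, 25.4 and 25.5 FPKM in WT and 45.5, 49.9 and 47.0 FPKM in FN3K KO. All KO libraries lay above all WT libraries, and SOD2 rose by 0.92 on the log2 scale (SE 0.06, 95% interval 0.77 to 1.06, adjusted p = 6.8e-06). The cytosolic enzyme SOD1 rose less, from 135 ± 7.79 to 162 ± 4.32 FPKM (0.26, SE 0.06, adjusted p = 0.0048). The ratio of SOD2 to SOD1 went from 0.183, 0.180 and 0.186 in WT to 0.290, 0.303 and 0.286 in FN3K KO (exact permutation p = 0.1). GENCODE 29 holds another SOD2 entry on the same strand that shares 845 bases with the listed transcript. Of the stretches of 50 bases in that transcript 10.4% also occur in other genes, 5.26% in the other SOD2 entry, so reads may have been split between them.

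**Figure D2:**
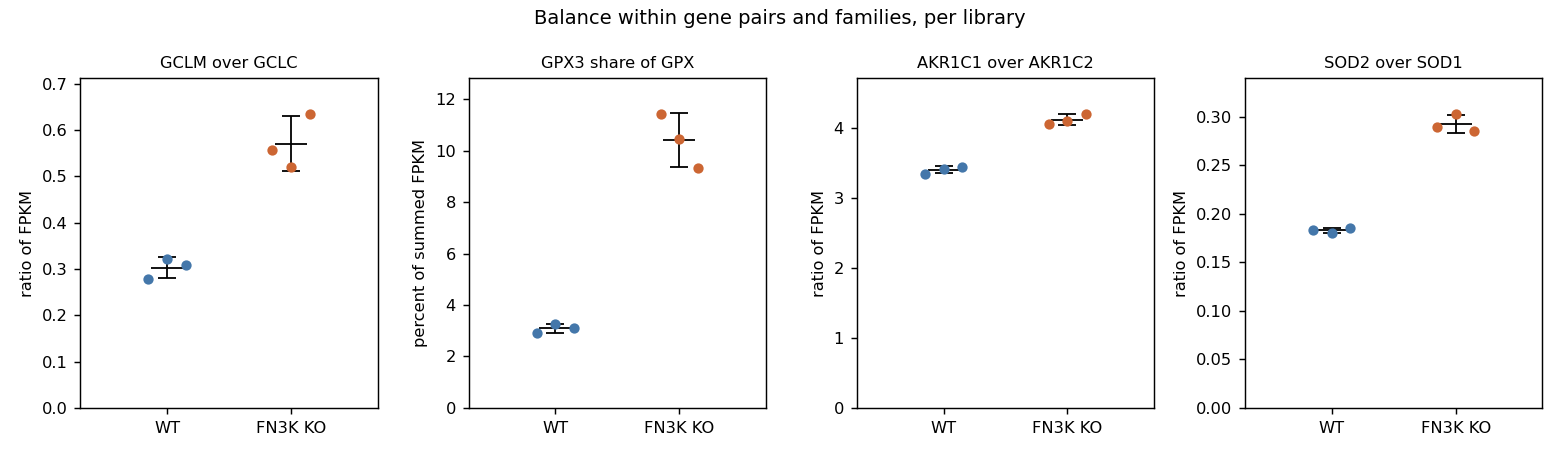
Ratio of FPKM of GCLM to GCLC, AKR1C1 to AKR1C2 and SOD2 to SOD1, and GPX3 as a percent of the summed FPKM of GPX2, GPX3, GPX4 and GPX7 (y axes from 0), with 1 dot per library, WT in blue, FN3K KO in orange and black bars for the mean ± SD of 3 libraries. In all 4 panels every FN3K KO library lies above every WT library, by the least for AKR1C1 over AKR1C2 (1.21 times) and by the most for the GPX3 share (3.36 times).

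The order of levels changed little apart from GPX3. In WT, by mean FPKM, it ran FTH1, AKR1C1, NQO1, MGST1, SOD2, GCLC, HMOX1, GPX3, SLC7A11 and GCLM. The library ranges of neighbours overlapped between AKR1C1 and NQO1 and along the run from MGST1 to HMOX1. In FN3K KO it ran FTH1, AKR1C1, NQO1, GPX3, MGST1, SOD2, HMOX1, GCLC, GCLM and SLC7A11, where only GPX3 and MGST1 overlapped as neighbours. GCLM and SLC7A11 thus exchanged the last places. Replicate spread, as SD in percent of the mean, ran from 2.20% for AKR1C1 in WT to 15.4% for SLC7A11 in FN3K KO, with 14.3% for MGST1 and 10.99% for GCLM in WT. WT replicate 1 was the lowest WT library for 8 of the 10 genes and for 55.1% of all loci.

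**Figure D3:**
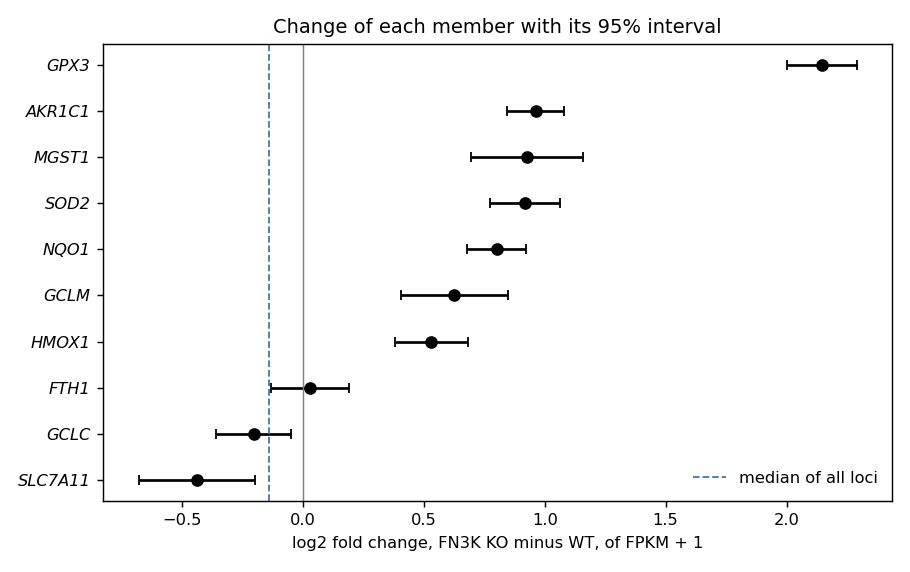
Log2 fold change of FPKM + 1, FN3K KO minus WT (x axis), of the 10 genes, with dots for the estimate and bars for its 95% interval in limma. The dashed line is the median of all loci (-0.14), which lies inside the intervals of GCLC only and just outside the interval of FTH1 (-0.13 to 0.19).

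The other genes of these pathways were counted in 10 lists with 186 genes in all, of which 109 were listed by name. With the 10 genes left out, 99 remained, of which 47 rose, 20 fell and 32 were not called, with log2 fold changes from -1.37 to 2.41 around a median of 0.22. The median of all loci was -0.14, and of all loci 21.2% rose and 36.5% fell. These shares are the background for the counts of each list below. How the lists compare with other lists was not tested.

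Genes of the NRF2 target list mostly rose. Without the 7 of the 10 genes that are in this list, 19 of 27 were listed, and of these 15 rose, 1 fell and 3 were not called, with a median log2 fold change of 0.56. PIR, the nuclear protein pirin, rose from 2.76 to 7.02 FPKM (1.11, SE 0.18, adjusted p = 8.4e-04). TXNIP binds thioredoxin and blocks its reducing action rather than adding to it. It is counted in this list, but that NRF2 induces it is not shown here. TXNIP rose from 0.429 ± 0.0381 to 5.82 ± 0.781 FPKM (2.25, SE 0.22, adjusted p = 4.9e-05), and by 3.48 with a pseudocount of 0.1. ABCC1, which exports glutathione conjugates, was the 1 that fell (-0.35, SE 0.10, adjusted p = 0.017), a call that was lost without WT replicate 3 (adjusted p = 0.071) or KO replicate 3 (0.054). NRF2 itself (NFE2L2) and KEAP1 were not listed by name and are not analysed here. Of the regulators 5 of 11 were listed, and 1 rose, SQSTM1 (p62), the autophagy adaptor that can sequester KEAP1, from 99.0 to 161 FPKM (0.70, SE 0.08, adjusted p = 1.5e-04). The lowest was MAFK, a small MAF partner, at 14.2 FPKM in WT and 12.2 FPKM in FN3K KO (-0.20, SE 0.12, adjusted p = 0.18), with the opposite sign under the Ballgown library adjustment (0.13).

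Glutathione synthesis and turnover was split. Without SLC7A11, GCLC and GCLM, 16 of 27 genes were listed, of which 5 rose, 5 fell and 6 were not called, with a median log2 fold change of -0.02. The share of these 16 that fell was not above the 36.5% of all loci that fell. CTH, which cleaves cystathionine to cysteine, had the lowest log2 fold change and fell from 5.93 to 3.35 FPKM (-0.68, SE 0.13, adjusted p = 0.0024). NAT8, which acetylates cysteine conjugates on the way to mercapturic acids, rose most, from 0.785 to 8.51 FPKM (2.41, SE 0.20, adjusted p = 1.7e-05), and by 3.32 with a pseudocount of 0.1. GSR, which regenerates glutathione from its disulfide with NADPH, had 63.0 FPKM in WT and 66.3 FPKM in FN3K KO (0.07, SE 0.05, adjusted p = 0.26).

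The conjugating and reducing enzymes leaned upward. Of the glutathione transferases other than MGST1, 8 of 23 were listed, of which 5 rose, 0 fell and 3 were not called, with a median of 0.61. All 8 had a positive log2 fold change in limma, so none could count as fallen there at any threshold. In the model with Ballgown's library term 0 fell at an unadjusted p under 0.05. GSTA2, a liver alpha-class transferase, rose from 3.31 to 8.25 FPKM (1.11, SE 0.20, adjusted p = 0.0015). Of the aldo-keto and carbonyl reductases other than NQO1 and AKR1C1, 8 of 17 were listed, with 5 that rose, 1 that fell and 2 not called. PTGR1, which reduces the double bond of unsaturated aldehydes and ketones, rose from 1.06 to 6.79 FPKM (1.92, SE 0.20, adjusted p = 5.8e-05). DCXR, the dicarbonyl and xylulose reductase, fell from 90.6 to 76.3 FPKM (-0.25, SE 0.07, adjusted p = 0.011).

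Superoxide and peroxide enzymes other than SOD2 were listed for 18 of 25, of which 8 rose, 4 fell and 6 were not called, with a median of 0.19. SESN2, a stress-induced sestrin, fell from 17.9 to 11.4 FPKM (-0.61, SE 0.11, adjusted p = 0.0020). Iron and haem genes other than HMOX1 and FTH1 were listed for 13 of 19, with 7 that rose, 1 that fell and 5 not called, and a median of 0.33. CP, the ferroxidase ceruloplasmin, rose from 12.3 to 39.5 FPKM (1.599, SE 0.10, adjusted p = 4.9e-06), and SLC40A1, the iron exporter ferroportin, from 8.72 to 23.4 FPKM (1.33, SE 0.08, adjusted p = 3.6e-06). TFRC, the transferrin receptor that takes iron up, rose from 24.7 to 47.2 FPKM (0.90, SE 0.12, adjusted p = 2.8e-04). IREB2, which represses ferritin translation when iron is low, fell from 10.3 to 8.56 FPKM (-0.24, SE 0.08, adjusted p = 0.033), and lost its call when any library other than WT replicate 1 was left out (adjusted p = 0.054 to 0.11).

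NADPH supply had 13 of 19 genes listed, of which 7 rose, 3 fell and 3 were not called, with a median of 0.23. NADK, which makes NADP from NAD, had the lowest log2 fold change and fell from 35.2 to 26.1 FPKM (-0.42, SE 0.06, adjusted p = 4.5e-04). Its relative NADK2 rose from 8.50 to 11.9 FPKM (0.46, SE 0.12, adjusted p = 0.011). Of the enzymes that produce oxidants 9 of 20 were listed, with 5 that rose and 4 that fell. AOX1, aldehyde oxidase, rose from 11.8 to 20.6 FPKM (0.76, SE 0.09, adjusted p = 1.2e-04). MAOA, a mitochondrial amine oxidase that yields hydrogen peroxide, fell from 10.3 to 3.403 FPKM (-1.37, SE 0.16, adjusted p = 1.5e-04). ERO1B, which oxidises protein disulfide isomerase, fell from 3.35 to 0.966 FPKM (-1.15, SE 0.23, adjusted p = 0.0026). The more abundant relatives of both went the other way. MAOB rose from 17.7 to 21.7 FPKM (0.28, SE 0.08, adjusted p = 0.012). ERO1A rose from 17.5 to 22.3 FPKM (0.34, SE 0.06, adjusted p = 0.0019).

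**Figure D4:**
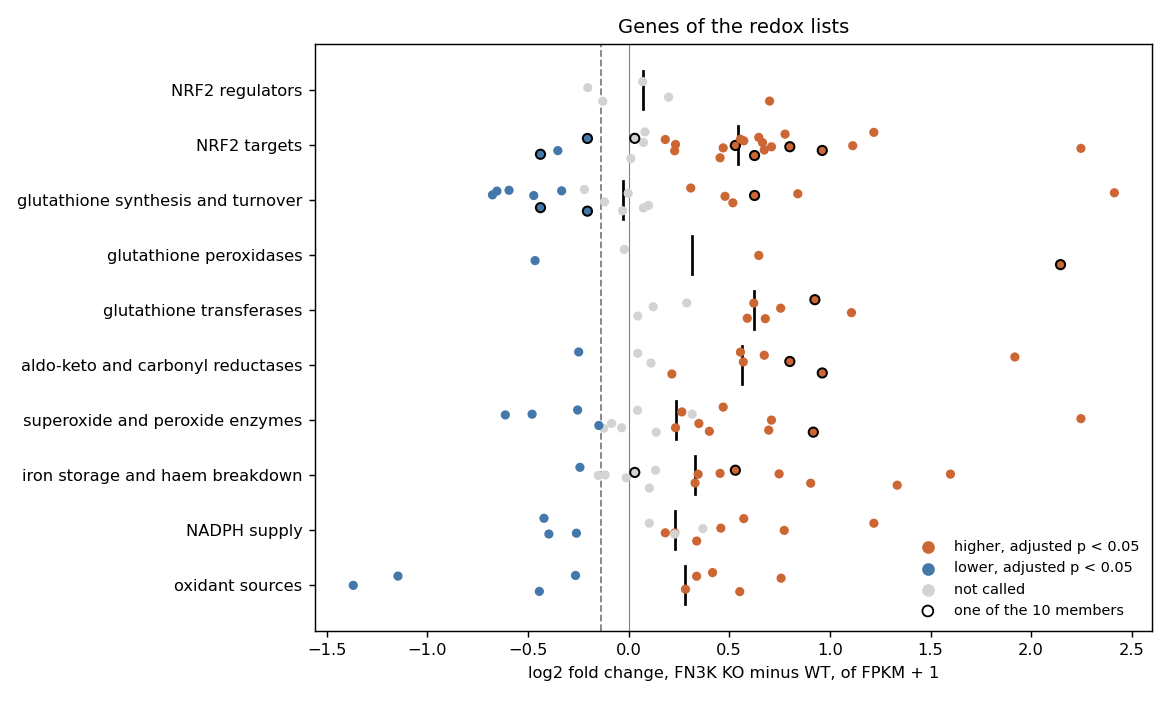
Log2 fold change of FPKM + 1, FN3K KO minus WT (x axis), of every listed gene in each of the 10 lists (rows, with vertical scatter for legibility). Orange dots rose, blue dots fell and grey dots were not called, black outlines mark the 10 genes, black ticks the median of each list with those genes included, and the dashed line the median of all loci (-0.14). All list medians lie to the right of the dashed line, between -0.03 for glutathione synthesis and turnover and 0.62 for the transferases.

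A linear model with the library adjustment that Ballgown makes, the kind of test the study ran, kept the direction of all 10 genes but not all calls. NQO1, GPX3, AKR1C1, SOD2 and GCLM kept theirs, HMOX1 (0.58, adjusted p = 0.054), MGST1 (1.11, 0.059), SLC7A11 (-0.27, 0.34) and GCLC (-0.08, 0.46) lost theirs, and FTH1 gained one (0.14, 0.048). Of the other named genes 13 lost their call in that model: MGST3, GPX2, GPX7, GSS, ABCC1, PIR, CTH, GSTA2, DCXR, SESN2, IREB2, NADK and MAOA. Among these the log2 fold change shrank by over 1.5 times for SESN2 (-0.32, adjusted p = 0.23), ABCC1 (-0.18, 0.51) and IREB2 (-0.15, 0.26). A call lost in this model does not show that a gene did not differ.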

How the data were processed

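RNA of 3 WT and 3 FN3K KO plates of HepG2 cells was sequenced. The authors mapped reads with HISAT2 and assembled and quantified transcripts with StringTie 2.0.6 against GRCh38.p5, per the submitters' processing notes, and deposited FPKM per locus. Low values kept no whole reads (at most 2 of the 300 lowest loci shared a ratio in any pair of libraries), so depth is unknown and no count model was used. FPKM summed to 289983 to 314164 per library. Assembly may merge or split overlapping genes.

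The test was limma 3.58.1 under R 4.3.3 (lmFit and eBayes, variance trend on) with log2(FPKM + 1) of all 6357 loci as input and Benjamini-Hochberg adjustment over them. The test was tried on simulated data first. Also tried were 0.1 as pseudocount, only loci with at least 1 FPKM on average, scaling to the 75th percentile, limma without the trend, Ballgown's library adjustment, the replicate number as a term, and each library left out. Ballgown itself was not run. Genes named are the 10 members, FN3K, the closest relatives and partners of the members, NFE2L2 and KEAP1, the extremes of each list among genes with a mean of at least 1 FPKM, and list genes past 1 on the log2 scale. A gene that meets this rule is not reported here. BEST1 (for its overlap with FTH1), TFRC, NADK2, ERO1A and MAOB were named after their values were seen. They are not in the counts of named genes under other settings. The members and lists were chosen with earlier results of these data known. Gene positions are from GENCODE 29 and promoter windows from RefSeq.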

Additional observations from a re-analysis of the deposited data

How the results depend on the processing

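With 0.1 as pseudocount, with only loci of at least 1 FPKM on average, or with 75th percentile scaling, all 10 genes kept their direction and call. The count of the 10 that fell went from 2 to 1 in limma without the trend (GCLC, adjusted p = 0.053), to 0 with Ballgown's library adjustment (0 at an unadjusted p under 0.05 too), and to 1 to 2 with each library left out, where 7 rose each time. Ballgown's adjustment took the pathway genes that rose from 54 to 28 and those that fell from 22 to 2, and called 1127 loci (53.2% higher) against 3670 (36.7% higher), so a call lost in it does not show that a gene did not differ. Scaling to the 75th percentile moved the median of all loci from -0.14 to -0.10 and Ballgown's adjustment to -0.05. With each library left out, pathway genes that rose numbered 50 to 53 and those that fell 16 to 22, and FN3K stayed between -3.85 and -3.68. Signs turned for FTH1 without WT replicate 1 (-0.0062, and up to 0.065 without another library), for GPX4 with 75th percentile scaling (0.026), without WT replicate 3 (0.015), without KO replicate 1 (0.0011) and without KO replicate 2 (0.022; down to -0.086 without KO replicate 3), and for MAFK with Ballgown's adjustment (0.13). The cause was not tested. Deviations of same-numbered libraries correlated at 0.0096, 0.0061 and 0.046. No shared deviation is seen, but this cannot show whether plates were handled in pairs. With the replicate block, 7 of the 10 rose and 2 fell, 54 pathway genes rose and 21 fell, and among the named genes only IREB2 lost its call (adjusted p = 0.060). Unknown depth limits what can be said of genes near 0 FPKM.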
